A study of Arabidopsis thaliana with 12 samples.

Results

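Among the genes that glucose lowered in wild-type Arabidopsis seedlings, 145 probe sets were also lower after glucose in seedlings carrying an RNAi construct against the kinase gene TOR. They were chosen from 22746 non-control probe sets on group means of RMA values, which are log2 levels. A member had to reach a level of 7 in at least 1 of the 4 groups, to be lower with glucose than without by at least 1 in wild type, and to be lower by at least 0.6 in the tor line. Of 1054 probe sets that met the level and the wild-type drop, the 145 members were 13.8%, and the other 909 changed less in the tor line. The choice used both glucose contrasts, so the drops given here describe the members and carry no test. A single gene name was available for 64 members, 2 members match several genes, and the 79 without an annotated gene enter counts only.

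The 12 arrays were made from whole seedlings 3 days old, grown in liquid 0.5 x MS medium at 22 °C under 75 uE light with a photoperiod of 12 h, a low light meant to use up the seed's own supply. Each of the 4 groups holds 3 arrays described as biological replicates. Wild type (WT) is Col-0, and the tor line carries an estradiol-inducible RNAi construct against TOR and is also tagged Col-0. Seedlings of either genotype received 15 mM glucose over 2 h or were left untreated (none). The labels do not say which groups were exposed to estradiol, so the inducer and the silencing cannot be told apart in comparisons of the genotypes. TOR has no named probe set here, and its silencing was not checked. In a whole seedling, fewer cells of a type and less RNA per cell cannot be told apart.

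TOR is a protein kinase that promotes growth and ribosome production when sugars and amino acids are plentiful. When sugar runs out, its counterpart SnRK1 acts to switch on genes that break down amino acids, lipids and cell components for respiration. Glucose represses many of these starvation genes within hours, and part of plant sugar sensing, such as that through the hexokinase HXK1, is known to operate apart from TOR. Genes of amino acid breakdown, nitrogen recycling and autophagy are classical members of the starvation programme.

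The tissue label fits the 2 named shoot markers, the light-harvesting genes LHCB4.1 and LHCB4.2, at mean levels of 13.80 and 12.55 in untreated WT. Of the 2 named root markers, the root-hair expansins EXPA7 and EXPA18, EXPA7 was at 6.84 in untreated WT and 4.82 in untreated tor (adjusted p = 0.000394), and EXPA18 was at 5.14 and 5.47 (adjusted p = 0.368). Their part in the results was not tested. None of the seed storage markers had a named probe set. Array medians over all probe sets lay between 6.53 and 6.68 in WT and between 6.76 and 6.86 in tor. A whole-table shift between the genotypes of this size touches the genotype comparisons. Counts with each array centred on its median stand beside the others for the members and for the gene lists with counts. For the classes of calls over both conditions they were not taken.

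The members changed by a median of -2.71 on the log2 scale in WT, with a range of -6.53 to -1.01, and by a median of -0.79 in tor, with a range of -2.75 to -0.60. In every member the drop in tor was the smaller. As a share of the WT log2 drop, the tor drop had a median of 31.4%, with quartiles at 24.8% and 40.9%, and it reached 50% in 25 members. A drop in tor of at least 1 was seen for 43 members. Untreated WT was the highest of the 4 groups for 115 members and untreated tor for the other 30. Glucose-treated WT was the lowest group for 119 members and glucose-treated tor for 26. With glucose, 12 members lay below 5 in WT, a level under which 25.9% of all probe sets stayed in every group, so that the size of their WT drop is a lower limit.

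**Figure D1:**
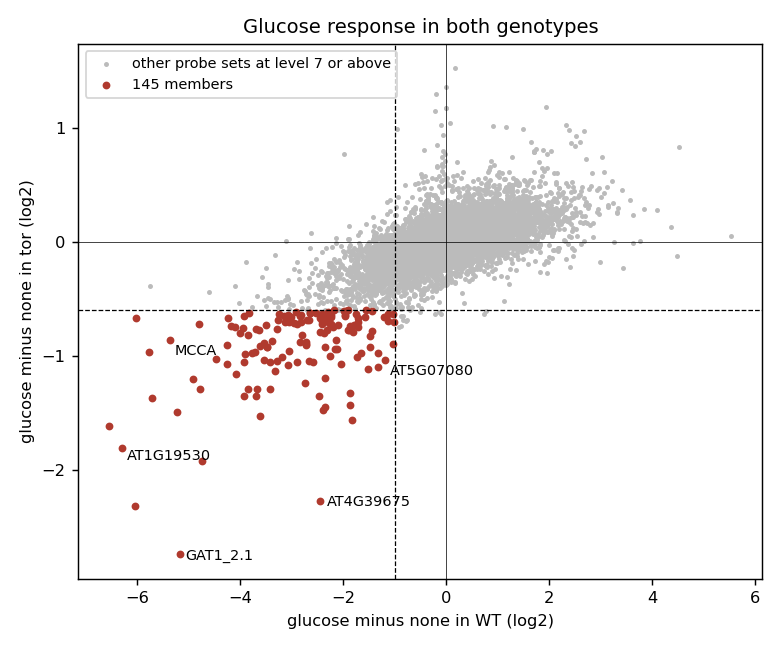
Glucose minus none in WT (x axis, log2) against glucose minus none in tor (y axis, log2) for probe sets with a highest group mean of at least 7, each point 1 probe set; dashed lines mark -1 and -0.6. The 145 members in red fill the lower left corner, where WT drops reach -6.53 and tor drops reach -2.75 (GAT1_2.1 is the lowest).

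The members of the tor groups were not equally low on all arrays. Over the 145 members the median level without glucose in tor was 7.94, 9.31 and 9.53 on arrays 1, 2 and 3, and with glucose 7.41, 8.30 and 8.38. In WT it was 9.42, 10.3 and 10.2 without glucose and 7.31, 6.97 and 6.64 with it. Untreated tor array 1 was the lowest of the 3 untreated tor arrays for 133 of the 145 members. Glucose-treated tor array 1 was the lowest of its group for 119. In WT, array 1 had the lowest median without glucose and the highest with it. Between arrays of the same number the median change in tor was -0.45, -1.06 and -0.98, and 137 members were lower in all 3 such pairs, but 33 reached -0.6 in all of them. What set the arrays numbered 1 apart was not tested.

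**Figure D2:**
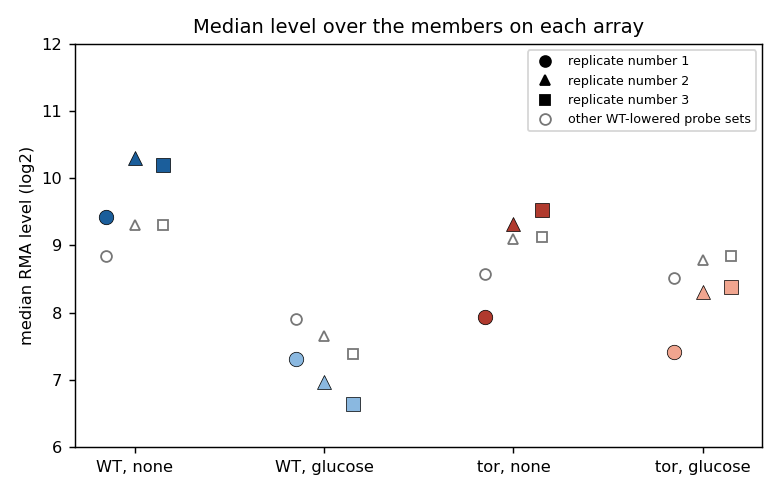
Median RMA level (y axis, log2) over the 145 members on each of the 12 arrays (filled symbols) and over the 909 other WT-lowered probe sets (open grey symbols), by group; symbol shape gives the replicate number. In tor the circles of array 1 lie lowest both without (7.94) and with glucose (7.41).

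Which probe sets were chosen depended on the tor arrays. Without tor_none array 1 the same limits chose 391 probe sets, and without tor_none array 3 they chose 68. Without tor_glucose array 1 they chose 96, without tor_glucose array 2 the number was 211, and without tor_glucose array 3 it was 229. Leaving out any 1 WT array gave 141 to 148. To read the drop on arrays that the choice had not used, the limits were applied to 2 replicate numbers and the third was read. Leaving out number 1 chose 257 probe sets, 140 of them among the 145, and their median change in tor on the number 1 arrays was -0.25. Leaving out number 2 chose 110, 99 of them shared, with a median of -1.06 on the number 2 arrays. Leaving out number 3 chose 116, 106 of them shared, with a median of -1.0. Over all probe sets the same medians were -0.01, 0.02 and 0.02. A drop of at least 0.6 on the unused arrays was seen for 17.5%, 75.5% and 85.3% of the chosen probe sets, in the order of the numbers. Any lower value on the unused arrays was seen for 82.1%, 95.5% and 100% of them. The direction thus carried over to each number for most of the chosen probe sets, and the size to numbers 2 and 3. By group means, however, 829 of the 909 other WT-lowered probe sets were also lower in tor, as were 10884 of all 22746. Shares by number were not taken for these sets, so the direction alone does not set the chosen probe sets apart. The median changes in tor of the other WT-lowered ones were -0.06, -0.29 and -0.31 on numbers 1, 2 and 3.

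In the model over all probe sets (limma, adjusted p under 0.05), 131 members were called lower with glucose in WT, where 10.5% of all probe sets were, and 0 were called lower in tor, where 0% of all probe sets were. At an unadjusted p under 0.05, 39 members and 146 of all probe sets (0.642%) were lower in tor. With the replicate number as a block the numbers of members were 142 (15.0% of all probe sets) and 0. The glucose-treated tor arrays all lay below the untreated ones for 21 members, against 2.37% of all probe sets. Neither fit paired the tor arrays within the line, where same-number arrays correlated most, so 0 calls in tor do not show that glucose changed nothing there. These contrasts chose the members, and the counts are given as a description.

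The largest drop that remained in tor was that of 1 nitrogen-handling gene, GAT1_2.1. The nitrogen-handling members PPDK and MGL, given below, dropped in tor by less than the member median of -0.79. GAT1_2.1, a glutamine amidotransferase-like gene, was at 10.30, 10.98 and 11.66 in untreated WT and at 6.06, 5.52 and 5.87 with glucose. In tor it was at 8.22, 10.66 and 11.17 without glucose and at 6.35, 7.34 and 8.13 with it. The groups with and without glucose did not overlap in either genotype, and the mean changes were -5.16 ± 0.81 (SD over 3 same-number pairs) in WT and -2.75 ± 0.77 in tor, or 35.8-fold and 6.71-fold lower. A separate probe set of GAT1_2.1, dimmer and below the level limit with a highest group mean of 6.75, changed by -1.75 in WT and -1.18 in tor on the same arrays.

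ASPGB1, an asparaginase that releases ammonium from asparagine, was at 6.65, 8.66 and 9.11 in untreated tor and at 6.87, 6.67 and 6.53 with glucose. Its untreated WT arrays read 7.19, 10.11 and 10.20, and with glucose they read 6.70, 7.03 and 6.71. In both genotypes array 1 was already near the level of the glucose-treated arrays without glucose, so that the mean changes of -2.35 ± 1.63 in WT and -1.45 ± 1.48 in tor rest on numbers 2 and 3.

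PPDK, pyruvate orthophosphate dikinase, an enzyme with a part in nitrogen remobilisation, was nearly as high in untreated tor (9.89, 12.27 and 12.34) as in untreated WT (10.90, 11.59 and 12.07). With glucose it lay at 6.73, 6.74 and 6.68 in WT but at 9.64, 11.12 and 11.58 in tor. The change was -4.81 ± 0.61 in WT and -0.72 ± 0.45 in tor, 15.0% of it. With glucose PPDK was 4.06 ± 0.65 (SE) higher in tor than in WT (adjusted p = 0.00077, higher in every tor array), and without glucose the difference was -0.02 ± 0.65 (adjusted p = 0.985). MGL, methionine gamma-lyase, which breaks down methionine, changed by -2.95 ± 0.31 in WT and -0.71 ± 0.35 in tor (SD). Of the 5 named probe sets listed for other amino acid breakdown and nitrogen recycling, 3 were members.

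Genes of leucine breakdown were lower with glucose in tor by their group means, yet remained above the level of glucose-treated WT. MCCA and MCCB, the subunits of methylcrotonyl-CoA carboxylase, and IVD, isovaleryl-CoA dehydrogenase, are the 3 members among 10 named probe sets for branched-chain amino acid and lysine breakdown. MCCA read 11.54, 12.00 and 12.54 in untreated WT and 8.01, 6.02 and 5.96 with glucose. In tor it read 9.21, 11.54 and 11.92 without glucose and 9.07, 10.01 and 10.99 with it. On number 1 of tor MCCA moved by little, and the groups in tor overlap. The changes in tor were -0.86 ± 0.70 for MCCA, -0.87 ± 0.61 for MCCB and -0.77 ± 0.46 for IVD (SD over pairs), or 16.1%, 25.6% and 21.3% of those in WT.

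With glucose, the 3 genes were higher in tor than in WT, MCCA by 3.36 ± 0.77 (SE, adjusted p = 0.00567), IVD by 2.37 ± 0.68 (adjusted p = 0.0169) and MCCB by 1.63 ± 0.48 (adjusted p = 0.02). The IVD call was lost without WT_glucose array 2, tor_glucose array 2 or tor_glucose array 3, and the MCCB call without WT_glucose array 2, WT_glucose array 3 or tor_glucose array 3 (highest adjusted p 0.068 and 0.0794). Without glucose none of the 3 differed past the threshold, with differences of -1.14 ± 0.77 for MCCA (adjusted p = 0.3), -0.89 ± 0.48 for MCCB (adjusted p = 0.194) and -0.48 ± 0.68 for IVD (adjusted p = 0.639). All 10 named probe sets of the breakdown list were called higher in tor with glucose, against 25.4% of all probe sets and 59.3% of the other WT-lowered ones. In WT 9 of the 10 were themselves called lower with glucose. Without glucose 2 of the 10 were called higher in tor, against 19.5% of all and 8.03% of the other WT-lowered ones. With each array centred on its median the counts were also 10 and 2 (16.9% and 10.3% of all).

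Of 5 named sugar starvation markers, 2 were members. AT4G27450, of the family with the YGL and LRDR motifs, read 9.20, 10.44 and 10.42 in untreated tor and 8.83, 9.32 and 9.68 with glucose, a change of -0.74 ± 0.38 against -4.17 ± 1.27 in WT. AT2G32150, a haloacid dehalogenase-like hydrolase, read 9.59, 12.43 and 12.17 in untreated tor and 8.91, 11.49 and 11.52 with glucose. Each same-number pair of AT2G32150 moved by a similar amount (-0.75 ± 0.16), while its untreated array 1 was far below the other two. With glucose AT2G32150 was 3.11 ± 0.81 (SE) higher in tor than in WT (adjusted p = 0.0112) and AT4G27450 was 2.27 ± 0.45 higher (adjusted p = 0.00262). Across the 5 markers 4 were called higher in tor with glucose (25.4% of all probe sets, 59.3% of the other WT-lowered ones). Without glucose 2 were called lower in tor (8.66% of all probe sets, 27.4% of the other WT-lowered ones). In WT all 5 were themselves called lower with glucose. With the replicate number as a block the counts in tor were also 4 and 2 (30.4% and 13.7% of all). With each array centred they were 4 and 3 (16.9% and 20.9% of all).

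Autophagy gave 1 member among 16 named probe sets. ATG8E, a ubiquitin-like protein that is attached to autophagosome membranes, read 8.69, 9.29 and 9.39 in untreated tor and 8.33, 8.14 and 8.45 with glucose, so that the groups did not overlap. It changed by -0.81 ± 0.41 in tor and -2.80 ± 1.18 in WT (SD). With glucose ATG8E was 1.75 ± 0.36 (SE) higher in tor than in WT (adjusted p = 0.00322). Without glucose ATG8E differed from WT by -0.24 ± 0.36 (adjusted p = 0.663). Most of the list shared the higher level: 13 of the 16 probe sets were called higher in tor with glucose (25.4% of all probe sets). Without glucose 7 were called higher (19.5% of all). With each array centred the counts were 12 and 5 (16.9% and 10.3% of all). The median change of the 16 probe sets in tor was -0.13, against 0.01 over all probe sets.

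Regulatory and transport genes were also among the members. AT1G23390, a kelch F-box protein known to target chalcone synthase for degradation, changed by -2.82 ± 0.53 in WT and -0.71 ± 0.31 in tor. AT3G62950, a CC-type glutaredoxin, read 6.38, 7.33 and 8.43 in untreated tor and 5.97, 5.83 and 5.86 with glucose. It was the single member among 11 named glutaredoxin probe sets, of which 6 were called lower and 1 higher in untreated tor than in untreated WT (8.66% and 19.5% of all probe sets). With glucose 2 of the 11 were called lower and 2 higher (16.0% and 25.4% of all). With the replicate block 7 were lower and 1 higher without glucose (13.7% and 26.2% of all). With glucose the block called 4 lower and 2 higher (20.4% and 30.4% of all). With each array centred 7 were lower and 0 higher without glucose (20.9% and 10.3% of all). With glucose centring gave 4 lower and 1 higher (23.4% and 16.9% of all). UPB1, the transcription factor UPBEAT1 that sets the balance of reactive oxygen species in the root, read 6.81, 8.10 and 7.54 in untreated tor and 6.30, 6.47 and 6.08 with glucose, without overlap. SWEET16, a vacuolar sugar transporter, read 6.44, 7.57 and 7.80 in untreated tor and 6.17, 6.76 and 6.82 with glucose. Of 11 listed sugar transporters 4 had a named probe set, SWEET16 among them. All 4 were called lower in untreated tor than in untreated WT (8.66% of all probe sets). With glucose 2 of the 4 were called lower (16.0% of all). With the replicate block the counts were also 4 and 2, where 13.7% and 20.4% of all were called. With each array centred they were again 4 and 2 (20.9% and 23.4% of all).

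The SnRK1, bZIP, beta-oxidation, starch, cell wall, auxin, clock and touch lists held no member among their named probe sets (3, 2, 3, 2, 3, 3, 1 and 1), and the trehalose 6-phosphate enzymes had no named probe set here.

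**Figure D3:**
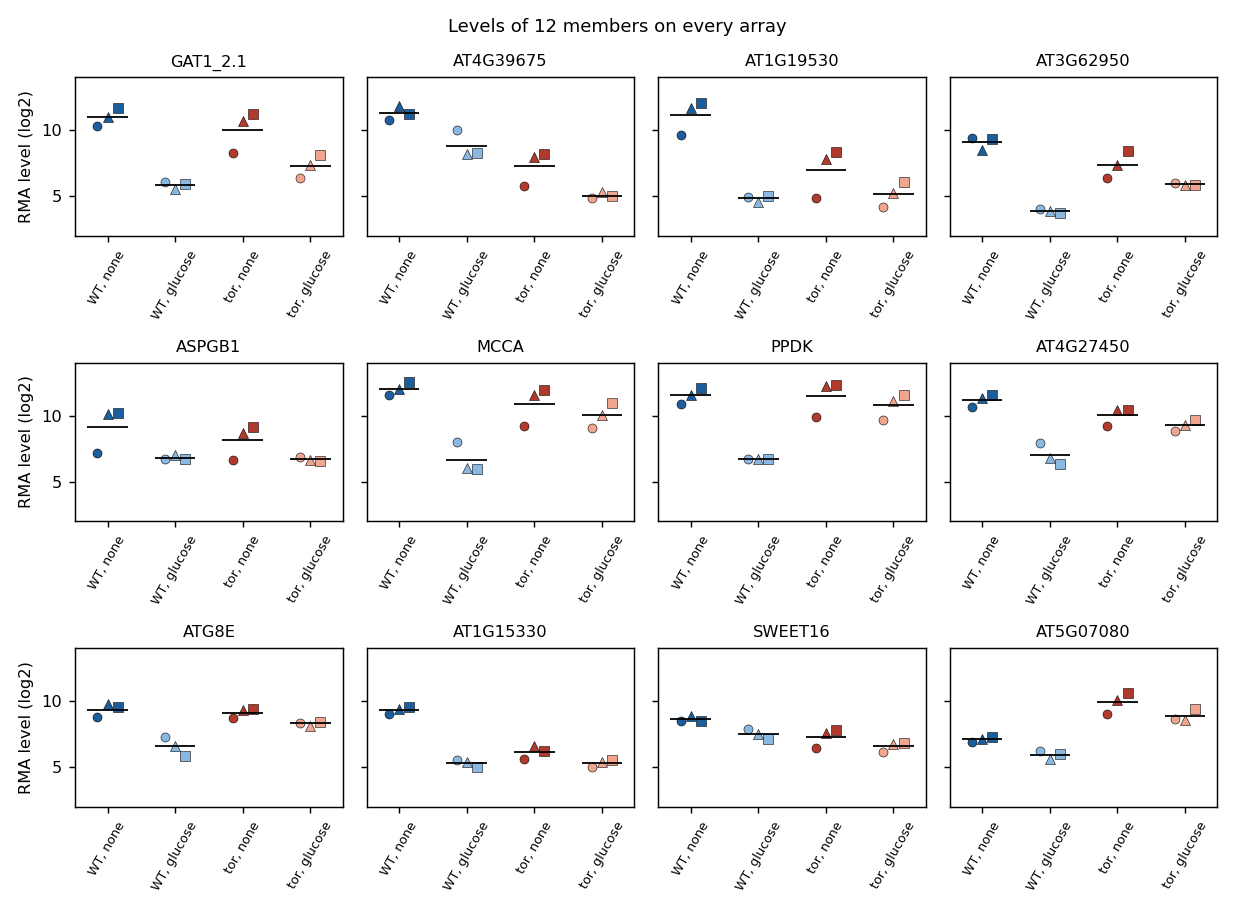
RMA levels (y axis, log2) of 12 members on every array, by group; circles, triangles and squares are replicate numbers 1, 2 and 3, and bars are group means. GAT1_2.1 averaged 10.02 in untreated and 7.27 in glucose-treated tor, PPDK stayed at 10.78 in glucose-treated tor against 6.71 in WT, and AT5G07080 was higher in tor in both conditions.

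For a few members the mean change in tor came close to that in WT. AT4G39675 read 5.78, 7.95 and 8.17 in untreated tor and 4.82, 5.28 and 4.98 with glucose. In WT it read 10.73, 11.78 and 11.24 without glucose and 9.98, 8.19 and 8.25 with it. The change of -2.27 ± 1.16 in tor was 93.1% of that of -2.44 ± 1.49 in WT, from a level that already differed from WT by -3.95 ± 0.63 (SE, adjusted p = 0.00123). With glucose it differed by -3.78 ± 0.63 (adjusted p = 0.000973), where its level of 5.03 is close to that of dark probe sets, so that the drop in tor may be larger than measured.

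AT5G07080, of the HXXXD-type acyltransferase family, was instead higher in tor, with 9.0, 10.10 and 10.60 untreated and 8.61, 8.57 and 9.41 with glucose, against 6.89, 7.15 and 7.26 and 6.19, 5.60 and 5.96 in WT. No tor array overlapped with a WT array of the same treatment, and the genotype differences were 2.80 ± 0.37 (adjusted p = 0.0004) and 2.95 ± 0.37 (adjusted p = 0.000193). Its changes of -1.18 in WT and -1.04 in tor started from levels that differed 6.96-fold. LTI30, a cold-induced dehydrin, changed by -1.02 ± 0.86 in WT and -0.89 ± 0.61 in tor (SD), and the genotype differences of LTI30 did not pass in either condition (adjusted p = 0.681 and 0.819). AT2G25450, a dioxygenase that hydroxylates side chains of glucosinolates, changed by -1.32 ± 0.57 in WT and -1.10 ± 0.44 in tor. AT2G25450 differed from WT by -1.92 ± 0.76 (SE, adjusted p = 0.0828, 0.0301 with the block) without glucose. AT2G37750 changed by -1.51 ± 0.62 and -1.12 ± 0.59.

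Some members with a deep WT drop began from a much lower level in untreated tor than in untreated WT. AT1G19530 read 9.64, 11.69 and 12.04 in untreated WT but 4.84, 7.78 and 8.30 in untreated tor. With glucose it read 4.92, 4.54 and 5.02 in WT and 4.16, 5.26 and 6.07 in tor, near the dark level in both. Its neighbour on the chromosome, AT1G19540, of the isoflavone reductase-like family, read 10.38, 11.56 and 12.09 in untreated WT and 6.70, 8.03 and 8.55 in untreated tor. Untreated tor differed from untreated WT by -4.15 ± 0.88 for AT1G19530 (adjusted p = 0.00595) and by -3.58 ± 0.52 for AT1G19540 (adjusted p = 0.000738). AT1G15330, a protein with CBS domains like those of the SnRK1 gamma subunit, was at 8.99, 9.43 and 9.55 in untreated WT and 5.59, 6.62 and 6.20 in untreated tor. In tor it differed by -3.18 ± 0.26 (adjusted p = 2.46e-05), and with glucose the genotypes differed by 0.02 ± 0.26 (adjusted p = 0.966). AT4G37220, of the COR413 cold acclimation family, changed by -4.23 ± 1.27 in WT and -0.66 ± 0.18 in tor (SD).

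The comparisons of tor with WT were not limits of the choice, but they use the same arrays and are not independent of it. The difference with glucose minus the one without equals the tor change minus the WT change. That was above 0 in every member, since the drop in tor was the smaller. A low difference without glucose and a high one with it are thus favoured by the choice. Without glucose 40 members, 27.6%, were called lower in tor, where 8.66% of all probe sets were. Among the 909 other WT-lowered probe sets the share was 27.4%, nearly that of the members. A further 6 members, 4.14%, were called higher, against 19.5% of all probe sets, and 7 with the block, against 26.2%. The median difference over the members was -0.95 ± 0.44 (SD over the 3 same-number medians), over the other WT-lowered probe sets -0.29 and over all probe sets 0.08. These sets were not matched for the WT change, which had a median of -2.71 in the members and -1.36 in the other WT-lowered probe sets. Whether the gap between -0.95 and -0.29 goes with the depth of the WT drop was not tested. With the replicate number as a block 63 members, 43.4%, were called lower, against 13.7% of all probe sets and 35.9% of the other WT-lowered ones. With each array centred 58 members, 40.0%, were called lower and 5 higher, but so were 20.9% and 10.3% of all probe sets, and 38.1% of the other WT-lowered ones were called lower. By number the member medians were -1.40, -0.67 and -0.60, and without tor_none array 1 the median over the members was -0.46. Without the 4 arrays numbered 1, 12 members were called higher, and the share over all probe sets was not taken for that fit. Read on arrays that the choice had not used, the medians were -1.13, -0.81 and -0.60 for numbers 1, 2 and 3.

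With glucose more members were called higher in tor than lower. In tor 62 members, 42.8%, were called higher than in WT, against 25.4% of all probe sets and 59.3% of the other WT-lowered ones. Another 7 members, 4.83%, were called lower, against 16.0% of all probe sets. AT4G39675, AT2G37750 and SWEET16 were the named members among the lower ones, and SWEET16 (-0.92 ± 0.34, adjusted p = 0.0483) lost its call without any 1 of 9 arrays and AT2G37750 (-0.97 ± 0.34, adjusted p = 0.0395) without any 1 of 6. The median difference over the members was 1.18 ± 0.75 (SD over the 3 same-number medians, which were 0.25, 1.47 and 1.63), against 0.93 for the other WT-lowered probe sets and 0.08 over all. On arrays not used for the choice it was 0.25, 1.32 and 1.77. Here too the members and the other WT-lowered probe sets were not matched for the depth of the WT drop. The count of higher members was 41 without WT_glucose array 2, 39 without WT_glucose array 3, 41 without tor_glucose array 2, 37 without tor_glucose array 3 and 103 without the 4 arrays numbered 1. The count of lower members was 3 without WT_glucose array 1 or tor_glucose array 2, 4 without tor_glucose array 1, 12 without tor_none array 1 and 12 with the replicate block, which called 20.4% of all probe sets. For the fits with arrays left out, shares over all probe sets were not taken, so these counts do not set the members apart. With the block 77 members were called higher, against 30.4% of all probe sets. With each array centred 50 members, 34.5%, were called higher and 8 lower, against 16.9% and 23.4% of all probe sets, and 51.3% of the other WT-lowered ones were called higher.

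Taken over both conditions, 18 members were called in both, 28 without glucose alone, 51 with glucose alone and 48 in neither. The shares were 12.4%, 19.3%, 35.2% and 33.1% of the members, 16.4%, 19.0%, 46.2% and 18.4% of the other WT-lowered probe sets, and 20.2%, 8.0%, 21.2% and 50.6% of all probe sets. For the splits by direction that follow, shares over the other sets were not taken, so they do not set the members apart. Of the 62 members higher in tor with glucose, 51 had not been called without it, 6 had been called higher and 5 lower. Of the 40 members lower in untreated tor, 28 did not differ past the threshold with glucose, 7 were called lower and 5 higher. All 6 members higher in untreated tor were called higher with glucose too. This was fixed in advance by the values that chose the members. In every member the drop in tor was the smaller, which makes the difference with glucose the higher one. They include AT5G55970, a RING-type protein, which was higher in tor by 1.51 ± 0.25 without glucose (adjusted p = 0.00166) and by 2.56 ± 0.25 with it (adjusted p = 5.35e-05).

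**Figure D4:**
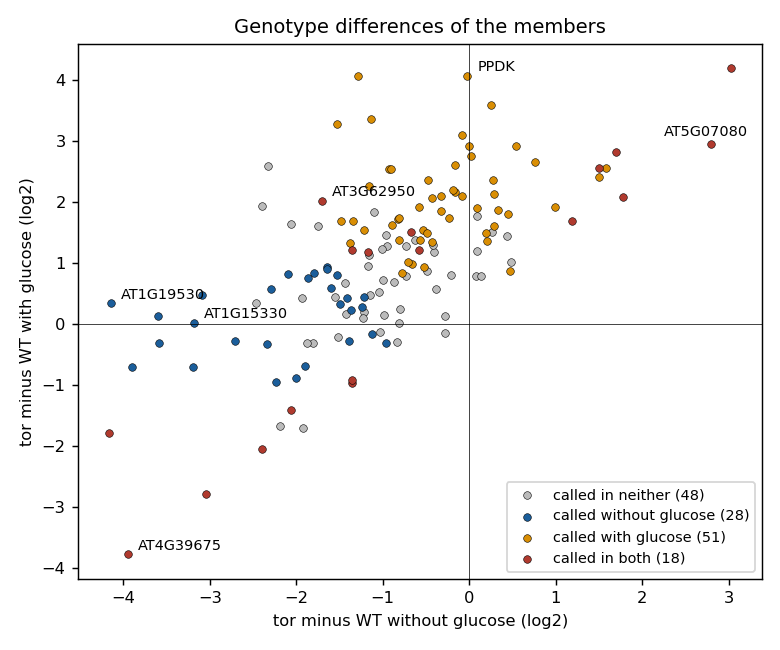
Tor minus WT without glucose (x axis, log2) against tor minus WT with glucose (y axis, log2), each point 1 of the 145 members, coloured by the comparisons in which limma called it. Most points lie left of 0 and above 0, and AT4G39675 at lower left and AT5G07080 at upper right were called in the same direction in both conditions. Every member has a higher value on the y axis than on the x axis, which follows from the glucose changes used for the choice.

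The limits cut through a continuous range. Just inside the tor limit lay UBC16, a ubiquitin-conjugating enzyme (-0.60), and AT4G33980 (-0.60), and just outside it lay WRKY22, a transcription factor of defence signalling (-0.60), and AT1G23120 (-0.60), all equal to 2 decimals. Near the WT limit LTI30 (-1.02) and SWEET16 (-1.13) were inside, and AT4G27280 (-0.92) and AT5G43520 (-0.87) were outside. Near the level limit AT4G15260 (7.27) and AT1G65490 (7.34) were inside, and AT1G19960 (6.95) and the calmodulin-like gene CML41 (6.95) were outside. The named members with the highest mean level over the 4 groups were AT5G19120, an aspartyl protease-like gene, AT3G15630, MCCB and AT5G26740. AT5G19120 averaged 12.34 without and 9.89 with glucose in WT, and 11.77 and 11.10 in tor.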

How the data were processed

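The deposited log2 levels, 1 per probe set and array, were made by the authors with RMA, per the submitters' processing notes. No source says if all 12 arrays were normalized in 1 run. Their log2 fold changes from dChip, deposited too, served as an alternative. Of 22810 probe sets 64 controls were left out. 1 value is missing on tor_glucose array 3, in a probe set that is no member, and its group mean was taken over the other arrays. Gene names come from the platform annotation, updated through RefSeq (TAIR10.1) by gene ID. Sequences were not used here.

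Members were chosen in Python 3.11.15 (pandas 2.3.3). A mean per group was fitted to all 12 arrays with limma 3.58.1 in R 4.3.3 (lmFit, eBayes), with two-sided p-values adjusted by Benjamini-Hochberg over 22746 probe sets and called under 0.05. On data simulated with independent noise on each array, the fit recovered 12%, 68% and 100% of genotype changes of 0.5, 1.0 and 2.0. It made 8 false calls. Noise shared by arrays of the same number was not simulated, so the simulation does not cover the pairing. SE is that of the model. SD is over the 3 differences between same-number arrays. Replicate numbers were taken to pair the arrays for the SD, since the 18 same-number pairs correlated at 0.199 to 0.863 after removal of group means. Untreated with glucose-treated tor arrays correlated at 0.863, 0.678 and 0.811 for numbers 1, 2 and 3. All other pairs were at 0.502 or less. The main fit did not use the number, and a block on it was an alternative. The block took the same effect of a number in both genotypes, so it did not model a pairing within tor alone. SE, adjusted p-values and calls thus ignore the pairing unless the block is named. Other alternatives were centred arrays, a level filter, an intensity trend, array weights, fits of 6 arrays and arrays left out. Members and lists were chosen with earlier results of these data known. Genes are named if they are listed, extreme in a contrast, in share or in level, or next to a limit. Precision is limited by 3 arrays per group, and p-values measure the spread between these.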

Additional observations from a re-analysis of the deposited data

Results flagged for a closer look

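For 14 members the order of the genotypes differed between the conditions: all 3 tor arrays lay below all 3 WT arrays without glucose and above them with it. This was 9.66% of the members, against 8.47% of the other WT-lowered probe sets and 0.646% of all probe sets. The named ones are AT3G62950, AT3G49790, AT4G27450, AT5G26740, AT2G38820 and AT5G19120. AT2G38820 was at 9.27 in untreated WT and 8.60 in untreated tor, and at 6.38 and 7.88 with glucose. The difference of the glucose responses was not tested for these members, because both responses were used to choose them. The change of order goes with that difference, so it is not independent of the choice either.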

How the results depend on the processing

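Of 166 alternative values of counts and medians, 144 stayed within the limits set for them (1.5 times for a count, 1 SD for a median). The other 22 moved and 0 reversed. A reversal could be recorded only for medians of the genotype differences. Counts, which are most of the values, could only stay or move. Some are counts of calls on the 2 glucose contrasts that chose the members. With the replicate block the members called lower in untreated tor numbered 63 (main 40) and those called lower with glucose 12 (main 7), and array weights gave 11 for the latter. Without the 4 arrays numbered 1 (added after seeing the data), 2 members were called lower by glucose in tor (main 0), 12 were called higher in untreated tor (main 6), 103 were called higher with glucose (main 62), and the limits chose 257 probe sets. A tor limit of -1 in place of -0.6 left 43 members, whose median difference from WT without glucose was -1.49. Leaving out 1 array at a time gave 68 to 391 chosen probe sets. It gave 109 to 137 members called lower by glucose in WT and 0 to 0 in tor, 29 to 45 called lower and 5 to 8 higher in untreated tor, and 3 to 12 called lower and 37 to 75 higher in tor with glucose. The medians of the genotype differences ranged from -1.25 to -0.46 without glucose and from 0.89 to 1.39 with it. For fits with arrays left out or weighted, the share of all probe sets called was not taken. Those counts therefore give no comparison of the members with the rest. The cause of these shifts was not tested beyond the arrays named.

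The authors' deposited table of dChip fold changes, with the same level limit, gave 184 probe sets, 137 of them among the 145. Centring the arrays gave 163, which hold all 145. For 19 named genes, 48 of 722 alternative values crossed the threshold of the genotype tests and 0 reversed. The motif search planned for promoters was not run, since no sequences were used. Members near or below the dark level of 5, 12 with glucose in WT, limit the size of drops that can be seen.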

Other observations

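In tor some members varied more between replicate numbers than between treatments, and these genes were chosen after their values were seen. COR27, a cold-regulated gene with a role in clock output, read 10.01, 8.05 and 10.71 in untreated tor and 10.13, 6.61 and 9.88 with glucose. In WT it read 9.99, 9.83 and 11.14 without glucose and 8.97, 6.43 and 8.87 with it. Its relative AT4G33980 (COR28) was also lowest on array 2 in 3 of the 4 groups, with 6.89, 5.51 and 7.75 in untreated tor. PDF1.4, a plant defensin family gene, went the other way, with 7.68, 10.45 and 8.87 in untreated tor and 7.24, 9.70 and 8.18 with glucose, and AT1G65490 read 6.28, 8.86 and 6.88 and then 5.43, 8.24 and 6.00. In each of these the highest or lowest array was number 2 in both tor groups.

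Further named members, also chosen after their values were seen, concern sugars, hormones and proteolysis. AT1G62660, a vacuolar invertase that splits sucrose, read 11.35, 10.98 and 11.23 in untreated WT and 8.11, 9.54 and 9.90 in untreated tor (-2.0 ± 0.40 SE, limma adjusted p = 0.00426). AT1G12010, an ACC oxidase of ethylene synthesis, differed by -2.23 ± 0.44 (adjusted p = 0.00419) and AT3G19390, a papain-like cysteine protease with a granulin domain, by -1.59 ± 0.48 (adjusted p = 0.0316). With glucose none of the 3 passed the threshold without the replicate block (-0.88 ± 0.40, -0.95 ± 0.44 and 0.59 ± 0.48, adjusted p = 0.1, 0.111 and 0.362), and with the block AT1G12010 did (adjusted p = 0.0158). AT2G20670, AT2G38820 and AT3G07350, which share the DUF506 domain, were all members, with changes in tor of -1.29, -0.72 and -0.63. Among the 64 named members, 2 pairs are direct neighbours on a chromosome: AT1G19530 with AT1G19540, and the PLATZ-type gene AT1G76590 with AT1G76600.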
